A study of Mus musculus with 18 samples.

Results

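The genes of the mitochondrial respiratory chain and ATP synthase that are carried in the nucleus were followed here through islet RNA of Cdh13-deleted and floxed mice. Of 24346 genes listed in the deposited expression files, 85 have symbols that begin with Nduf and a subunit letter and number, are Sdha to Sdhd, begin with Uqcr, are Cyc1, begin with Cox4 to Cox8, or begin with Atp5. The choice rested on the symbols and applied no measured value, though earlier results of these data were known when it was made. By symbol, 37 belong to complex I, 4 to complex II, 9 to complex III, 18 to complex IV and 17 to complex V. Of the 85, 81 reached at least 1 FPKM (fragments per kilobase of transcript, scaled to library size) in at least 3 libraries and were tested. The 4 that did not, Cox4i2, Cox7b2, Cox8b and Cox8c, are complex IV paralogs. Some symbols do not name a subunit of the complex they are filed under here: Cox7a2l assists in joining complexes III and IV, Atp5s and Atp5sl are not structural subunits of ATP synthase, and Ndufa4 is now placed in complex IV.

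RNA was from isolated islets of C57BL/6 mice, with 3 libraries in each of 6 groups: Cdh13 exon 2 deleted and Cdh13 exon 2 floxed, both at 14 weeks of age after 6 weeks of high-fat diet (HFD) begun at 8 weeks, at 14 weeks on normal chow, and at 8 weeks on normal chow. Cdh13 encodes T-cadherin, a cadherin without a cytoplasmic domain. The labels name no Cre line and do not say in which cells the exon is deleted, nor whether islets of several mice were pooled. Since nothing says that the libraries of a group came from separate mice, the p-values measure the spread between libraries, which may be technical.

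Oxidative phosphorylation passes electrons from NADH through complex I, or from succinate through complex II, to ubiquinone, on to cytochrome c through complex III, and to oxygen through complex IV. Complexes I, III and IV pump protons across the inner mitochondrial membrane, and complex V, the ATP synthase, uses the return of the protons to make ATP. In beta cells the ATP made in this way from glucose closes potassium channels and so starts insulin release. Every subunit of complex II is nuclear, whereas the other complexes also hold subunits encoded by mitochondrial DNA, which were not part of this gene set.

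Promoters of the set are shown first because letters bound by factors known to act on respiratory chain genes recur in them. RefSeq promoters of the GRCm38.p6 build, running from 250 bases before to 50 bases after the annotated start, matched 66 of the 85 symbols. On either strand, the NRF1 letters GCGCA, any base and GCGC were found in 17 of the 66 (25.8%, against 5.19% of 27025 genes with a promoter), the ETS family letters CCGGAAG, which GABP binds, in 16 (24.2% against 9.93%), the YY1 letters AAGATGGC in 9 (13.6% against 3.19%), and the ERR letters AAGGTCA in 8 (12.1% against 5.38%). These 4 spellings were kept out of 9 scanned, after the counts of all 9 had been seen. The other spellings were the NRF1 letters with T as the free base in 5 (7.58% against 1.07%), GCATGCGC in 10 (15.2% against 3.05%), CCGGAAGT in 5 (7.58% against 4.31%), AAGATGG in 10 (15.2% against 7.28%) and TCAAGGTCA in 2 (3.03% against 0.466%). Several spellings contain one another, so their counts are not independent. A match is a description of letters, not a bound site. The promoters below belong to genes whose values are given later. RefSeq lists 2 promoters for Atp5j, of which 1 is shown, picked by the number of factors whose letters it holds and then by position. All lie on the minus strand and are written 5′ to 3′ along the gene, with the matched letters, or their reverse complement, in capitals.
Atp5g3 (chr2:73911277-73911576, ERR then NRF1 letters): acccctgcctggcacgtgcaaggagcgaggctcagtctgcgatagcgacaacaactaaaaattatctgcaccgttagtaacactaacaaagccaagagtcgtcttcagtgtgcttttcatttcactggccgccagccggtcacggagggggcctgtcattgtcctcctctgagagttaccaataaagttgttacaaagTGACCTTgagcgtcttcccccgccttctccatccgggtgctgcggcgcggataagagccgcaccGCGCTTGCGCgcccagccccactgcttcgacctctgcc
Atp5j (chr16:84834927-84835226, YY1 then ETS letters): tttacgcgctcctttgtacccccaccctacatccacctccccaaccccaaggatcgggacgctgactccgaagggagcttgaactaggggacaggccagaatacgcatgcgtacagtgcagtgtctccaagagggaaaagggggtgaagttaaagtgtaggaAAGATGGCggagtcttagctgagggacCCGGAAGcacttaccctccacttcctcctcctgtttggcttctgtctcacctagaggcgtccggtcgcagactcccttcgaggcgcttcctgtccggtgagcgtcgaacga
Cox8a (chr19:7217567-7217866, ETS letters at 2 places): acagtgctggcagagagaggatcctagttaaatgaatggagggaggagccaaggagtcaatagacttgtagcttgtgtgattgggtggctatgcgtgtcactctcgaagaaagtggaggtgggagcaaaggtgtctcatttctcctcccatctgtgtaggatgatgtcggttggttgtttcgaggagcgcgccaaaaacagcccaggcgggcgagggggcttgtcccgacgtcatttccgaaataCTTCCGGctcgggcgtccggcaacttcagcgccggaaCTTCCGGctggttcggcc
Sdha (chr13:74350191-74350490, NRF1 letters at 3 places): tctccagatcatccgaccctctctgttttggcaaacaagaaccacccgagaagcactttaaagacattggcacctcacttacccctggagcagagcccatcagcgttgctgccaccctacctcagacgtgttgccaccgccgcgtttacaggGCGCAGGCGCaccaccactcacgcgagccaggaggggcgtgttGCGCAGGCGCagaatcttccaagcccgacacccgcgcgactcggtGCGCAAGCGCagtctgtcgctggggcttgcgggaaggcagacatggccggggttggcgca
Atp5g3, Atp5j and Cox8a were higher on HFD and Sdha was lower, as described below. Among the 51 genes with a promoter that were higher on HFD, 14 held the NRF1 letters, 13 the ETS letters, 8 the YY1 letters and 8 the ERR letters. Among the 13 tested genes with a promoter that were not higher, the numbers were 3, 3, 1 and 0. No test was made of these shares.

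The files give FPKM without read counts, so how deeply any library was sequenced is unknown. The sum of all FPKM values lay between 903346 and 1394009 per library. It was 1337804 to 1394009 in the HFD libraries and 903346 to 1078671 in the 14-week chow libraries. At 8 weeks it was 1070616 to 1243323. Ins2 alone made up 50.2% to 52.7% of it in the HFD libraries, against 40.2% to 43.8% in the 14-week chow libraries. Summed FPKM of 7 beta cell markers was 802581 to 853713 in deleted and 829842 to 863860 in floxed islets on HFD, against 445279 to 573280 in deleted and 465229 to 542162 in floxed islets on chow at 14 weeks. Summed FPKM of 9 acinar markers was 74.3 to 186 in deleted and 8.34 to 260.03 in floxed islets on HFD, against 1247 to 2349 in deleted and 885 to 4416 in floxed islets on chow at 14 weeks. The acinar marker Amy2a5 was at 0 in every library. The part of these differences in the results was not tested. In bulk RNA, fewer cells of a type and less RNA per cell cannot be told apart. Cdh13, the targeted gene, had 0.247, 0.809 and 0.311 FPKM in deleted islets on HFD, against 1.38, 1.17 and 1.43 in floxed islets on HFD. It had 0.691, 0.419 and 0.544 in deleted islets, against 1.63, 2.06 and 1.33 in floxed islets, at 14 weeks on chow. At 8 weeks it had 0.765, 0.778 and 0.353 in deleted islets, against 1.09, 1.08 and 1.84 in floxed islets. All deleted libraries were below all floxed libraries within each condition, at levels near 1 FPKM where values are imprecise.

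Transcripts of the set were abundant in every group. Their summed FPKM over the 81 tested genes averaged 24935 ± 464 in deleted and 25141 ± 587 in floxed islets on HFD, 20129.8 ± 1842 in deleted and 19879 ± 1512 in floxed islets on chow at 14 weeks, and 20610.4 ± 2084 in deleted and 20153 ± 606 in floxed islets at 8 weeks (SD, n = 3 each). The 6 HFD libraries lay at 24399 to 25640.1 and the 12 chow libraries at 18368 to 22996, without overlap. Summed FPKM of all genes was also higher in every HFD library than in any chow library. As a share of that sum, the set was smaller in every HFD library than in any 14-week chow library. The nearest were the third deleted HFD library, with 25201.7 of 1365853, and the first floxed 14-week chow library, with 18469.4 of 941252. The shares at 8 weeks overlapped those on HFD. That sum includes Ins2, whose own share is given above. The most abundant gene of complex IV was Cox8a, a small structural subunit, at a mean of 790.2 FPKM over the 18 libraries. In complex V it was Atp5b, the catalytic beta subunit of ATP synthase, at 743 FPKM, in complex III Uqcrq, at 681 FPKM, in complex I Ndufb9, at 569 FPKM, and in complex II Sdhb, the iron-sulfur subunit, at 233 FPKM. FPKM is divided by transcript length, but a trend with length that differed between libraries is described below, so levels of short and long transcripts are only roughly comparable.

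**Figure D1:**
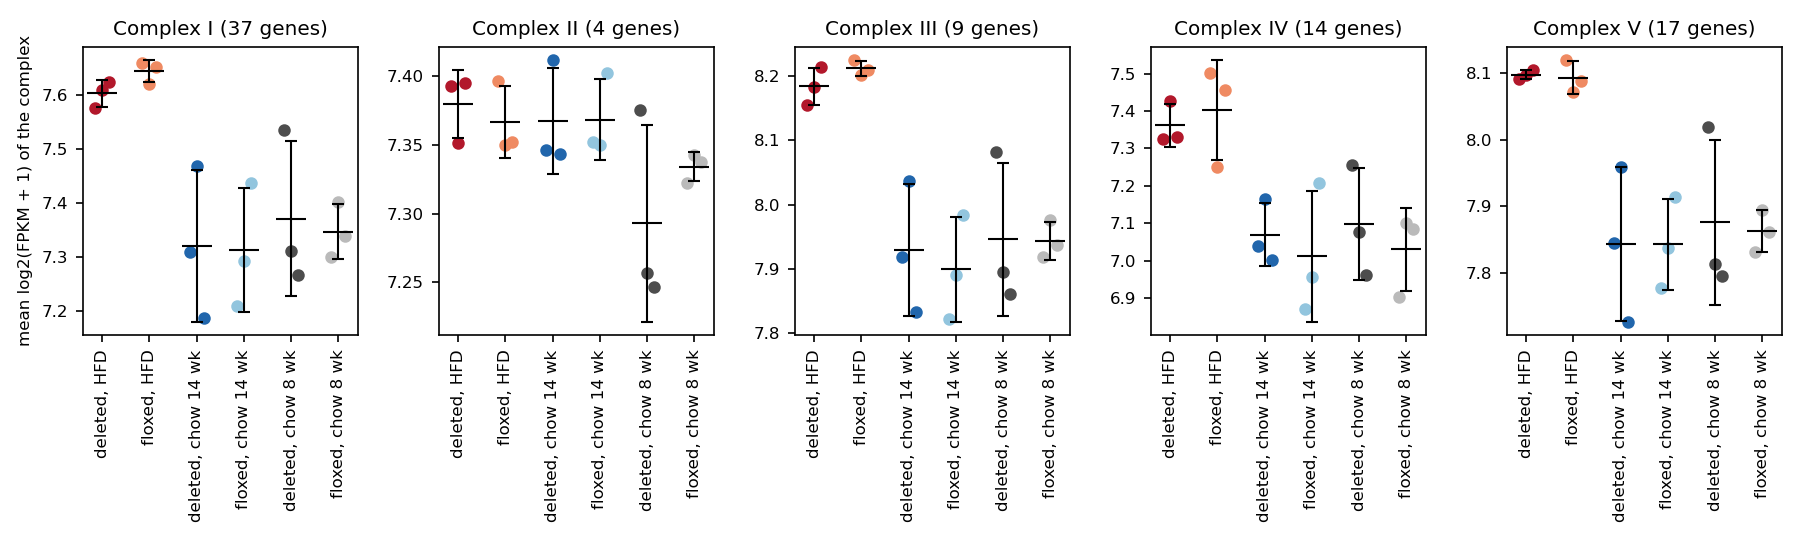
Mean log2(FPKM + 1) over the tested genes of each complex (vertical axis, not starting at 0) in each of the 18 libraries, by group; bars show the mean and SD of 3 libraries. For complexes I, III and V the HFD libraries lie above all chow libraries, whereas for complex II they overlap them.

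Complex II showed no such separation. Its summed FPKM averaged 700.5 ± 10.9 in deleted and 697 ± 14.1 in floxed islets on HFD, against 698 ± 21.9 in deleted and 694 ± 16.3 in floxed islets on 14-week chow (SD, n = 3 each). The sum for complex I was 9483 ± 190 in deleted and 9774 ± 203 in floxed islets on HFD, against 7668 ± 783 in deleted and 7543 ± 612 in floxed islets on chow. For complex IV it was 4964 ± 151 in deleted and 4956 ± 192 in floxed islets on HFD, against 3798 ± 392 in deleted and 3794 ± 367 in floxed islets on chow. The SD among the 14-week chow libraries exceeded that among HFD libraries for every complex in both genotypes. No test of the complexes against each other was made.

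On HFD most of the set was higher than on chow at 14 weeks, in both genotypes. Tests used limma on log2(FPKM + 1) across 12234 genes, with Benjamini-Hochberg adjustment over all of them and a threshold of 0.05. In deleted islets 44 of 81 genes passed, 43 of them higher and 1 lower on HFD, where 15.0% of all tested genes passed, 9.05% as higher and 5.91% as lower. In floxed islets 54 passed, 52 higher and 2 lower, where 28.5% of all tested genes passed, 15.0% as higher and 13.5% as lower. Averaged over the genotypes 61 passed, 58 higher and 3 lower, where 34.6% of the 12234 tested genes passed, 2202 as higher and 2034 as lower. The median difference over the 81 genes was 0.27 in deleted islets, 0.31 in floxed islets and 0.29 on average, while the median over all tested genes was -0.00343, -0.00603 and -0.00079 in the same comparisons. These counts depend on a trend with transcript length that is described below: with that trend removed, 29 were higher and 8 lower on average, and the median was 0.05. Under quantile normalization 40 were higher and 8 lower on average, 27 and 4 in deleted islets, and 31 and 5 in floxed islets. Of all tested genes, 16.8% then passed as higher and 18.2% as lower on average. The shares were 8.08% and 6.96% in deleted islets, and 13.9% and 14.7% in floxed islets. Without the third deleted chow library of 14 weeks, 27 passed in deleted islets, all higher on HFD.

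**Figure D2:**
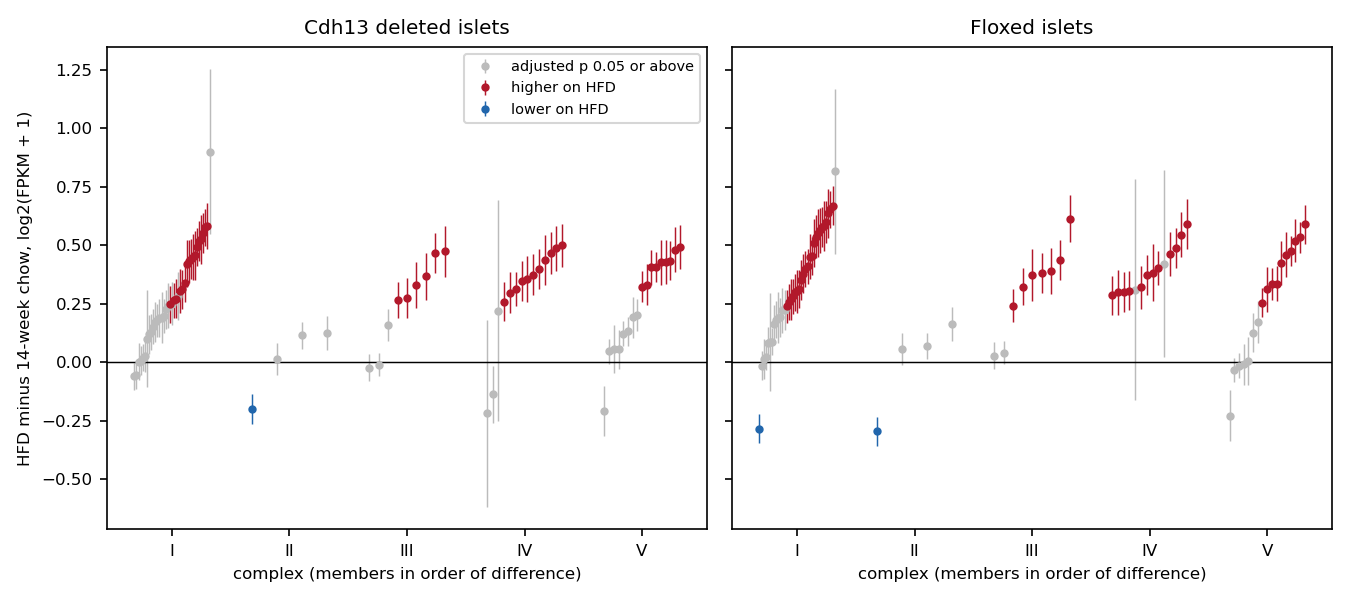
Difference between HFD and 14-week chow on the log2(FPKM + 1) scale (vertical axis) for each tested gene, ordered by size within its complex (horizontal axis), in deleted islets (left) and floxed islets (right); bars are standard errors. Genes higher on HFD are red, genes lower on HFD are blue, and grey genes did not pass the adjusted threshold of 0.05.

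In complex I, 28 of 37 genes were higher on HFD and 1 was lower, averaged over the genotypes, with a median of 0.27. Ndufb11, an accessory subunit of the membrane arm encoded on the X chromosome (chrX:20615326-20617619, mm10), had 238, 245 and 247 FPKM in deleted islets on HFD, against 167, 181 and 143 on chow. In floxed islets it had 269, 251 and 265 on HFD, against 152, 166 and 182 on chow. All HFD libraries were above all 14-week chow libraries in both genotypes, and the difference averaged 0.61 ± 0.06 (SE, limma adjusted p = 1.79e-07). Ndufc2, another membrane arm subunit, averaged a difference of 0.59 ± 0.06 (SE, limma adjusted p = 5.09e-07). In deleted islets Ndufa6, an accessory subunit of the peripheral arm, differed by 0.55 ± 0.09 (SE, limma adjusted p = 0.00027). Ndufb9, the most abundant member, had 632, 637 and 615 FPKM in deleted islets on HFD, against 521, 589 and 482 on chow, a difference of 0.25 ± 0.08 (SE, limma adjusted p = 0.041). In floxed islets Ndufb9 had 644, 641 and 633 on HFD, against 489, 513 and 561 on chow, a difference of 0.30 ± 0.08 (SE, limma adjusted p = 0.00859). The libraries did not overlap in either genotype. The Ndufb9 difference in deleted islets missed the threshold in 10 of 18 fits that left out 1 library.

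Ndufs1, the largest subunit of complex I, which carries iron-sulfur clusters in the arm that takes electrons from NADH, moved against its neighbours. It had 50.5, 52.8 and 47.6 FPKM in floxed islets on HFD, against 62.02, 59.1 and 63.2 on chow, and was lower in all 3 HFD libraries. In deleted islets it had 61.7, 59.5 and 56.8 on HFD, against 61.1, 60.1 and 63.5 on chow, and the libraries overlapped. The difference was -0.28 ± 0.06 (SE, limma adjusted p = 0.00214) in floxed islets and -0.05 ± 0.06 (SE, limma adjusted p = 0.623) in deleted islets. The difference between these differences was 0.23 ± 0.09 (SE, limma adjusted p = 0.171).

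Complex II has 4 subunits, of which Sdha was lower on HFD and Sdhd passed as higher on average. The median of the 4 differences was 0.06, and -0.06 under quantile normalization. Sdha, the flavoprotein that oxidises succinate (chr13:74322254-74350280, mm10), had 151, 155 and 160.3 FPKM in deleted islets on HFD, against 176, 171 and 190.2 on chow. In floxed islets it had 142, 156 and 142 on HFD, against 177, 181 and 181 on chow. Every HFD library lay below every 14-week chow library of its genotype. The difference was -0.20 ± 0.06 (SE, limma adjusted p = 0.0355) in deleted islets and -0.30 ± 0.06 (SE, limma adjusted p = 0.00164) in floxed islets. The call in deleted islets was lost in 5 of 18 fits that left out 1 library, each of the 3 deleted HFD libraries and the first and the third deleted chow library. Sdhd, a membrane anchor, differed by 0.14 ± 0.05 (SE, limma adjusted p = 0.0399), and lost its call in 9 of 18 such fits. Sdhb differed by 0.03 ± 0.05 (SE, limma adjusted p = 0.616), and was called lower under quantile normalization, at -0.13 (limma adjusted p = 0.00521). Sdhc, the other anchor, differed by 0.09 ± 0.04 (SE, limma adjusted p = 0.0824), and was called higher with the length trend removed, at 0.13 (limma adjusted p = 0.0196).

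In complex III, 7 of 9 genes were higher on HFD on average and none was lower, with a median of 0.33. Uqcr10, a small subunit, had 376, 389 and 404 FPKM in deleted islets on HFD, against 289.8, 339.8 and 278 on chow. In floxed islets it had 447, 388 and 424 on HFD, against 240.3, 284 and 300.3 on chow. The libraries did not overlap in either genotype, and the mean difference was 0.49 ± 0.07 (SE, limma adjusted p = 3.75e-05). With the length trend removed it was 0.09 (limma adjusted p = 0.0848). Uqcrh, the hinge protein near cytochrome c1, differed by 0.45 ± 0.06 (SE, limma adjusted p = 1.47e-05). Uqcr11, another small subunit, differed by 0.47 ± 0.11 (SE, limma adjusted p = 0.00674) in deleted islets. Uqcrq, the most abundant, had 789.5, 847 and 833 FPKM in deleted islets on HFD, against 676, 723 and 575 on chow, and differed there by 0.33 ± 0.10 (SE, limma adjusted p = 0.0295). In floxed islets Uqcrq had 768, 774 and 810.1 on HFD, against 556, 584 and 659.9 on chow, a difference of 0.39 ± 0.10 (SE, limma adjusted p = 0.00634). With the length trend removed, the mean Uqcrq difference turned to -0.06 (limma adjusted p = 0.211).

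In complex IV, 11 of 14 tested genes were higher on average and none was lower, with a median of 0.35. Cox8a had 907, 971 and 999 FPKM in deleted islets on HFD, against 689.6, 778 and 597 on chow. In floxed islets it had 1007, 943 and 1018 on HFD, against 623, 649.5 and 769 on chow. No HFD library reached down to a chow library, and the difference averaged 0.52 ± 0.07 (SE, limma adjusted p = 1.38e-05). Cox7a2, the form of subunit VIIa found in most tissues, differed by 0.48 ± 0.07 (SE, limma adjusted p = 1.71e-05). Cox6c differed by 0.47 ± 0.09 (SE, limma adjusted p = 0.0018), in deleted islets, and Cox5a, which binds near the matrix side of the enzyme, by 0.49 ± 0.09 (SE, limma adjusted p = 0.000388), in floxed islets.

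In complex V, 11 of 17 genes were higher on average and 1 was lower, with a median of 0.27. Atp5g3, one of 3 genes for the c subunit that forms the rotor ring, had 487, 496 and 455 FPKM in deleted islets on HFD, against 354, 390.2 and 339.7 on chow. In floxed islets it had 483, 490.2 and 472 on HFD, against 323, 358 and 360.0 on chow. The libraries were separated in both genotypes, and the difference averaged 0.44 ± 0.04 (SE, limma adjusted p = 5.75e-07). Atp5d, the delta subunit of the central stalk, differed by 0.43 ± 0.05 (SE, limma adjusted p = 1.29e-06), and Atp5j, which couples the stator to the catalytic head, by 0.41 ± 0.07 (SE, limma adjusted p = 0.00118) in deleted islets. Atp5b, the catalytic subunit and the most abundant, had 795, 777 and 762 FPKM in deleted islets on HFD, against 742, 762 and 757 on chow. In floxed islets Atp5b had 727, 738 and 709.9 on HFD, against 749, 726 and 751 on chow. Its mean difference was 0.01 ± 0.04 (SE, limma adjusted p = 0.917), which did not pass. It was called lower under quantile normalization, at -0.31 on average (limma adjusted p = 1.45e-06), -0.27 in deleted and -0.36 in floxed islets, and on average with scaling to the summed FPKM without the 20 most abundant genes, at -0.11 (limma adjusted p = 0.00479). The lower gene was Atp5sl, at -0.22 ± 0.08 (SE, limma adjusted p = 0.0325); it is named here because it is the only lower member of complex V, after its values were seen.

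**Figure D3:**
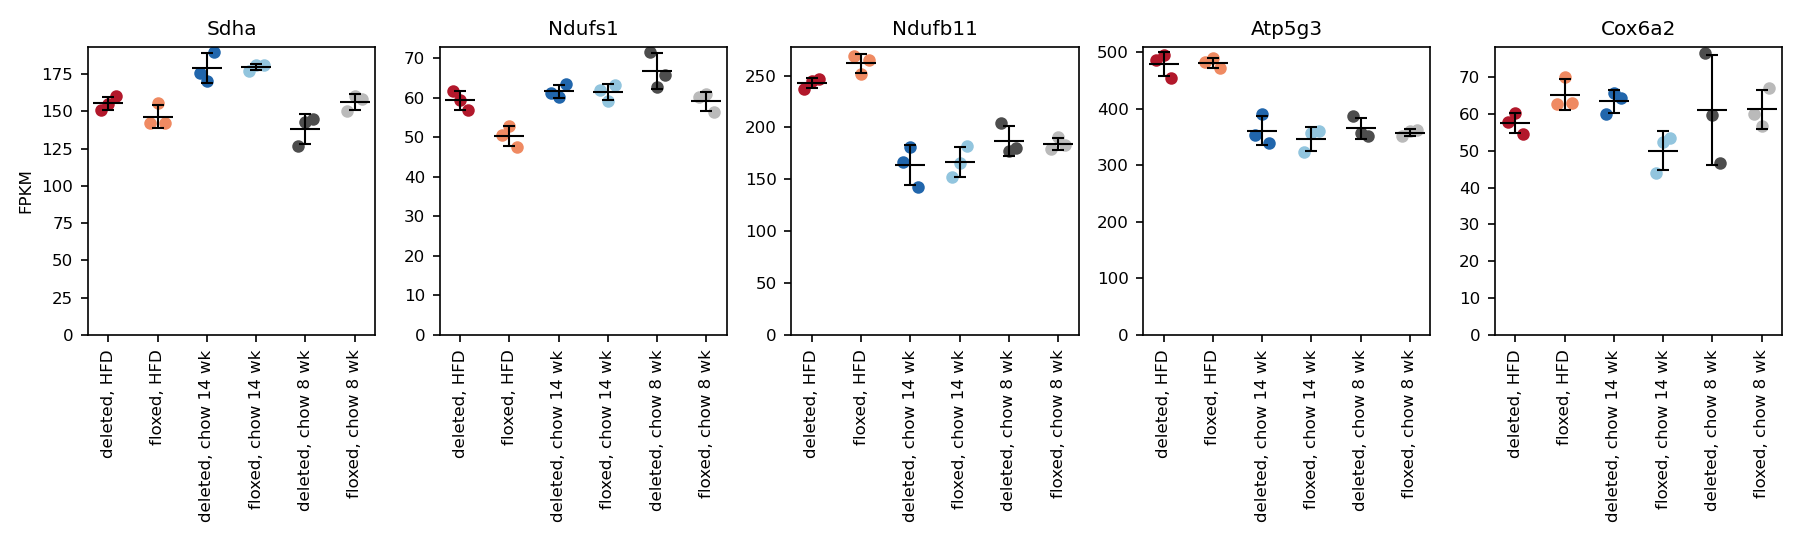
FPKM (vertical axis from 0) of Sdha, Ndufs1, Ndufb11, Atp5g3 and Cox6a2 in the 18 libraries, by group; bars show the mean and SD of 3 libraries. Ndufb11 and Atp5g3 are higher in all HFD libraries than in any chow library, Sdha is lower on HFD than on chow at 14 weeks, and Cox6a2 shows no common order of the groups.

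The 81 genes were also split by role, a division made after their values had been seen. The 22 subunits classed as core, for their counterparts in bacterial enzymes, had 10 higher and 2 lower on HFD on average, with a median of 0.09. The 52 subunits classed as accessory had 47 higher and none lower, with a median of 0.38. A narrower division tried first, which counted 6 ATP synthase subunits as accessory, gave 6 higher and 2 lower of 16 against 51 higher and none lower of 58. The accessory subunits also have shorter transcripts, with a median of 612 bases against 1198.5 bases for the core subunits. With the length trend removed, 20 accessory subunits were higher and 3 lower, with a median of 0.07, against 8 higher and 4 lower, with a median of 0.04.

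The difference on HFD followed transcript length across the whole table. Lengths were taken from GENCODE M21 as the middle protein-coding transcript of each gene. The 85 genes had a median of 704 bases, from 315 to 3171, against 2598.5 bases over all tested genes. Spearman's rho between length and the mean difference on HFD was -0.27 across 12152 tested genes with a length and -0.63 across the 81 genes, given as a description since genes of a library are not independent. Of the 56 tested members of up to 1000 bases, 47 were higher and none lower, with a median of 0.38. Of the 1258 other tested genes of that length, 46.7% were higher and 5.80% lower, with a median of 0.22. Of the 5 members over 2000 bases none was higher and 2 were lower, with a median of 0.05, and the 7795 other genes of that length had a median of -0.04.

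**Figure D4:**
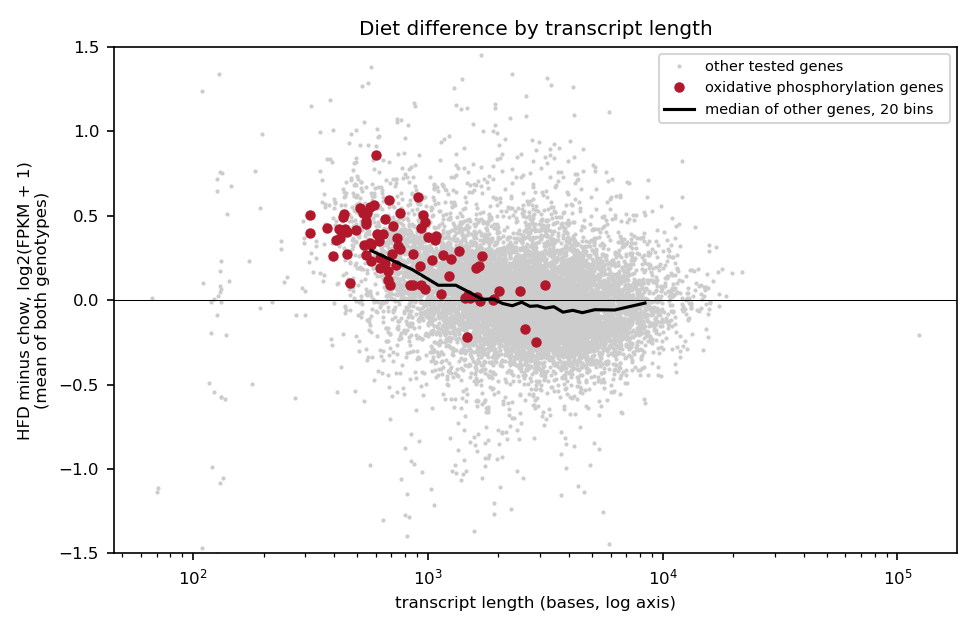
Mean difference between HFD and chow (vertical axis, log2(FPKM + 1), cropped at ± 1.5) against transcript length (horizontal log axis) for the oxidative phosphorylation genes (red) and all other tested genes (grey), with the median of the other genes in 20 bins of length (line); 57 other genes lie beyond the crop. The line falls with length and most red points lie above it at the short end.

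Removing each library's trend with length, fitted by loess on genes outside the set, left 29 of 81 genes higher and 8 lower on average, with a median of 0.05, where 15.3% of all tested genes passed as higher and 16.4% as lower. By complex, the median was then 0.02 for I, -0.01 for II, 0.03 for III, 0.09 for IV and 0.07 for V. Of the 61 genes called before, 31 kept their call in the same direction and 2 were called in the opposite one. This removal takes out any difference that follows length, whatever its source, and it was added after the data had been seen. The length definition was itself changed after results had been seen: with the longest annotated transcript of each gene, used first, 39 were higher and 11 lower, with a median of 0.13, and 41 of 61 kept their call. With the middle transcript, Ndufb11 remained higher by 0.44 ± 0.04 (SE, limma adjusted p = 2.21e-08), Ndufc2 by 0.33, Atp5d by 0.26, Cox7a2 by 0.20, Atp5g3 by 0.19 and Cox8a by 0.18. Sdha remained lower at -0.22 ± 0.04 (SE, limma adjusted p = 0.000187), and Ndufs1 at -0.15 ± 0.04 (SE, limma adjusted p = 0.0122). Ndufb9, at 0.02, Sdhd, at 0.05, Uqcr10, at 0.09, and Uqcrq, at -0.06, did not pass on average, nor did Uqcr11 in deleted islets, at 0.13, or Uqcrh, at 0.06, Cox5a, at 0.16, and Cox6a2, at 0.07, in floxed islets.

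Single libraries showed the same link. Relative to the mean of all 18 libraries, the median of the 81 genes lay at 0.16 to 0.20 in deleted and 0.16 to 0.23 in floxed islets on HFD, against -0.23 to 0.03 in deleted and -0.22 to -0.01 in floxed islets on chow at 14 weeks. Other genes of up to 1000 bases lay at 0.08 to 0.13 in deleted and 0.16 to 0.21 in floxed islets on HFD, against -0.18 to 0.01 in deleted and -0.15 to 0.00 in floxed islets on chow. In 5 of 6 groups the 3 libraries fell in the same order by both medians. By the share of Ins2 they fell in the order of the set in 2 of 6 groups.

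**Figure D5:**
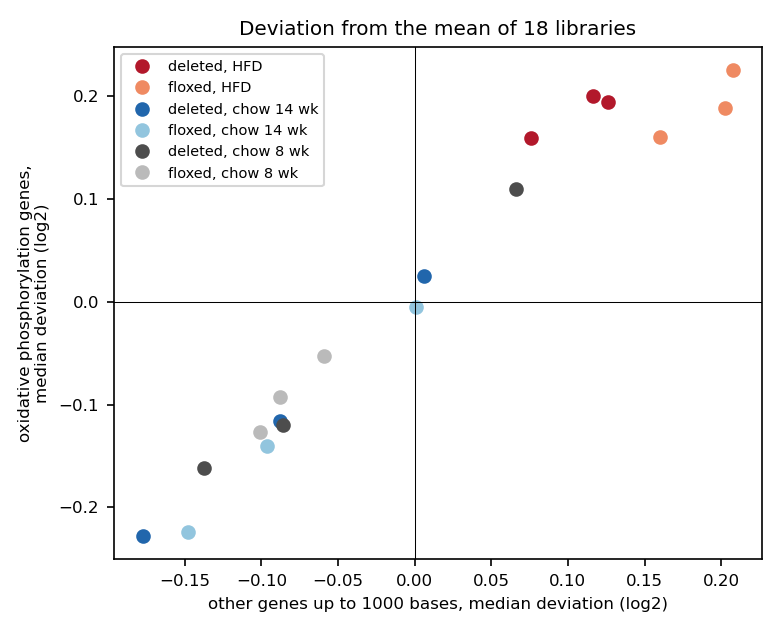
Median deviation of the oxidative phosphorylation genes (vertical axis, log2) against that of other genes of up to 1000 bases (horizontal axis, log2), each relative to the mean of all libraries; every point is 1 of 18 libraries, coloured by group. The HFD libraries lie at the upper right, and 1 deleted library of 8 weeks lies between them and the other chow libraries.

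Few genes of the set passed between the genotypes. On HFD, 1 of 81 genes passed between deleted and floxed islets, where 10.7% of all tested genes passed, and 11 had an unadjusted p below 0.05. That gene was Ndufs1, with 61.7, 59.5 and 56.8 FPKM in deleted islets, against 50.5, 52.8 and 47.6 in floxed islets, all deleted libraries being higher. The difference was 0.23 ± 0.06 (SE, limma adjusted p = 0.0196). The same groups differed in summed FPKM of 5 alpha cell markers, at 36177 to 46606 in deleted and 23395 to 28287 in floxed islets, and of 5 adipocyte markers, at 17.4 to 21.2 in deleted and 37.8 to 43.5 in floxed islets, with Adipoq and Plin1 at 0 in every library. Their part in the Ndufs1 difference was not tested. It was lost without the first or the second deleted HFD library or the third floxed HFD library, where limma gave adjusted p up to 0.0972. The median over the 81 genes was -0.03. With the length trend removed 12 were higher and 1 lower in deleted islets on HFD, where 5.31% of all tested genes passed as higher and 6.08% as lower, among them Ndufa4 by 0.28 and Atp5g1 by 0.29, named after their values were seen. With the longest transcript in its place the counts were 10 and 0 and Atp5g1 did not pass. The shares of all tested genes were then 5.38% as higher and 5.89% as lower. A fit of the HFD groups alone called 4 higher and 6 lower, where 4.90% of all tested genes passed as higher and 6.69% as lower.

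On chow, no gene of the set passed between the genotypes by limma. At 14 weeks 0.114% of all tested genes passed and 2 of the 81 had an unadjusted p below 0.05. At 8 weeks 0.548% of all tested genes passed and 5 of the 81 had an unadjusted p below 0.05. The medians were 0.01 at 14 weeks and 0.03 at 8 weeks. Averaged over the 3 conditions, Ndufs1 passed alone, at 0.14 ± 0.04 (SE, limma adjusted p = 0.0404), where 3.61% of all tested genes passed, and the call was lost in 12 of 18 fits that left out 1 library. No member passed the test of a genotype difference in the response to diet, where 3.53% of all tested genes passed and 4 members had an unadjusted p below 0.05, or to age, where 0.196% passed and 3 members did, by limma. Cox6a2 was nearest for diet, at -0.52 ± 0.17 (SE, limma adjusted p = 0.113). It passed in a fit of only the groups compared (limma adjusted p = 0.0133). It also passed without the first or the third deleted library of 8 weeks (limma adjusted p = 0.0256 and 0.0318). With the length trend removed 2 members passed for diet, where 1.92% of all tested genes passed as higher and 2.18% as lower.

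Few genes passed between 14 and 8 weeks on chow. In deleted islets 1 gene passed, where 2.91% of all tested genes passed. In floxed islets none passed by limma, where 4.15% passed and 6 members had an unadjusted p below 0.05. Averaged over the genotypes 2 passed, where 7.88% passed. Sdha, which was lower on HFD, was higher at 14 weeks than at 8 weeks: deleted islets had 176, 171 and 190.2 FPKM at 14 weeks, against 127, 143 and 145 at 8 weeks. Floxed islets had 177, 181 and 181 at 14 weeks, against 150.4, 161 and 159 at 8 weeks. The 14-week libraries lay above the 8-week libraries in both genotypes. The difference was 0.37 ± 0.06 (SE, limma adjusted p = 0.00198) in deleted islets and 0.20 ± 0.06 (SE, limma adjusted p = 0.0783) in floxed islets. A fit of the age groups alone did not call Sdha in deleted islets (limma adjusted p = 0.0835). In deleted islets the summed FPKM of 4 delta and PP cell markers was 5835 to 18557 at 14 weeks, against 36684 to 48698 at 8 weeks, and that of the acinar markers 1247 to 2349 at 14 weeks, against 20.4 to 1194 at 8 weeks. The part of these markers in the age differences was not tested. The chow libraries of 14 weeks enter both the diet and the age comparison, so these Sdha results share samples. Cox7a2l was lower at 14 weeks on average, at -0.20 ± 0.05 (SE, limma adjusted p = 0.0252), and lost its call in 5 of 18 fits that left out 1 library.

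Paralogs known mainly from heart, muscle, testis or hypoxic cells were low in islets, with 1 exception. Cox6a2, the form of subunit VIa known from heart and skeletal muscle, averaged 59.7 FPKM over the 18 libraries, against 545 for Cox6a1, the widespread form. It had 62.7, 70.1 and 62.97 FPKM in floxed islets on HFD, against 43.9, 52.5 and 53.6 on chow, a difference of 0.38 ± 0.12 (SE, limma adjusted p = 0.0256). In deleted islets it had 57.8, 60.3 and 54.6 on HFD, against 60.00, 65.8 and 64.4 on chow, a difference of -0.14 ± 0.12 (SE, limma adjusted p = 0.505). The call in floxed islets was lost without the second floxed HFD library or the first floxed chow library, with no filter on low values (limma adjusted p = 0.0519), and with scaling to the summed FPKM without the 20 most abundant genes (limma adjusted p = 0.0717). With the length trend removed, the difference was 0.07 in floxed islets (limma adjusted p = 0.646) and -0.36 in deleted islets, where it was then called lower (limma adjusted p = 0.0213). Summed FPKM of 4 muscle and heart markers was 2.13 to 5.88 over all groups, and Myh7, a myosin of slow muscle and heart, was at 0 in every library. Cox7a1, the heart and muscle form of subunit VIIa, lay between 0.92 and 6.30 FPKM over the libraries, and Ndufa4l2, known as a hypoxia-induced paralog of Ndufa4, between 0.43 and 2.32. On HFD, Ndufa4l2 had 0.93, 0.77 and 0.85 in deleted islets, against 1.26, 2.07 and 2.32 in floxed islets, levels at which values are imprecise. On chow the genotypes overlapped at both ages. At 14 weeks on chow the overlap was only 1.23 in a deleted against 1.22 in a floxed library, with a difference of -0.64. The main fit called Ndufa4l2 in neither condition, but a fit of the HFD groups alone called it lower in deleted islets, at -0.62 (limma adjusted p = 0.0317). Some fits that left out 1 library also called it lower averaged over conditions. Cox6b2 reached at most 2.19 FPKM, Cox4i2 at most 1.28 and Cox7b2 at most 0.87. Cox8c was listed above 0 in 1 library only, at 0.25, and Cox8b was listed at 0 in every library.

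Ndufs5, an accessory subunit of complex I, had the largest difference on HFD in the set, at 0.86 ± 0.25 (SE, limma adjusted p = 0.0186), and is named after its values were seen. It had 69.8, 59.9 and 118 FPKM in deleted islets on HFD, against 33.96, 66.7 and 32.2 on chow. In floxed islets it had 80.6, 80.7 and 64.6 on HFD, against 32.03, 38.8 and 59.8 on chow. The deleted libraries overlapped between diets, and neither genotype passed alone.

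Genes that assemble or supply the complexes were followed in lists of their own. Their counts stand beside the 34.6% of all tested genes that passed on average, 2202 of 12234 as higher and 2034 as lower. Of 23 assembly factors of complexes II to V, 9 were higher on HFD on average and none lower, with Cox17, a copper chaperone for complex IV, at 0.62 ± 0.06 (SE, limma adjusted p = 2.15e-07) and Sdhaf1, a factor for complex II, at 0.31 ± 0.05 (SE, limma adjusted p = 4.4e-05). Of 13 complex I assembly factors, 4 were higher and 1 lower, with Timmdc1, a membrane arm factor, at 0.65 ± 0.07 (SE, limma adjusted p = 1.51e-06) and Tmem126b at 0.33 ± 0.07 (SE, limma adjusted p = 0.00148). Of 8 genes of exchange across mitochondrial membranes, 5 were higher and none lower, led by Vdac1, the outer membrane channel.

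Vdac1 averaged 178 FPKM in deleted and 200.05 in floxed islets on HFD, against 108 in deleted and 100.9 in floxed islets on chow. Its mean difference was 0.85 ± 0.06 (SE, limma adjusted p = 1.33e-08). Of 20 genes of the citric acid cycle and pyruvate entry, 5 were higher and 3 lower, among them Suclg1, of succinyl-CoA ligase, at 0.18, and Suclg2, another subunit of that enzyme, at -0.21. Of 12 genes of the mobile carriers and their supply, 2 were higher and none lower. Of 13 tested regulators of mitochondrial biogenesis, 2 were higher and 2 lower. The median difference was 0.03 for assembly factors of complexes II to V, 0.06 for those of complex I, 0.23 for membrane exchange, 0.01 for the citric acid cycle, 0.08 for the carriers and 0.02 for the regulators, against -0.00079 over all tested genes.

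Between genotypes on HFD 10.7% of all tested genes passed. Of the 20 genes of the citric acid cycle and pyruvate entry 3 were higher and 1 lower in deleted islets. The 13 complex I assembly factors, the 23 of complexes II to V and the 8 of membrane exchange held 1 lower gene each. Among the higher ones, Ogdh, of the oxoglutarate dehydrogenase complex, averaged 43.7 FPKM in deleted and 34.03 in floxed islets, a difference of 0.35 ± 0.09 (SE, limma adjusted p = 0.0124). Dld, a subunit shared by several dehydrogenase complexes, averaged 54.8 FPKM in deleted and 46.01 in floxed islets, a difference of 0.25 ± 0.06 (SE, limma adjusted p = 0.0161). The lower ones were Surf1, a complex IV assembly factor, at -0.34 ± 0.07 (SE, limma adjusted p = 0.00486), Ndufaf2, a complex I assembly factor, at -0.45, Pdk1, a kinase that inhibits pyruvate dehydrogenase, at -0.47, and Ucp2, an inner membrane carrier, at -0.21.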

How the data were processed

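Total RNA of isolated mouse islets was turned into full-length cDNA with a SMART-Seq HT kit and into Nextera libraries, per the labels' protocols. Per the submitters' processing notes, the build was mm10 and the tools included Cufflinks 2.2.1, TopHat2 2.0.13 with Bowtie2 2.2.3, and SAMtools 0.1.19. The authors deposited 1 FPKM value per gene and library. Median ratios of the libraries to the geometric mean of all 18 were 1.0037 to 1.0079, and no source used here says how the libraries were scaled to each other. No counts were given, so depth is unknown and its share of the error cannot be separated.

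Groups were taken from the labels. A gene entered the tests when 3 or more of the 18 libraries reached 1 FPKM. Values were tested as log2(FPKM + 1), which understates changes of low genes, with limma 3.58.1 (trend and robust variance) in R 4.3.3, with 6 group means and 12 contrasts and Benjamini-Hochberg adjustment across genes. The fit was tested on simulated data. Lengths and positions came from GENCODE M21. In each complex the text names the most abundant gene and, per contrast, the 2 called genes with the smallest p, with exceptions stated; complex II subunits and restricted paralogs are always named. The members and lists were chosen with earlier results of these data known. Alternatives were 9 other settings, leaving out each library, and 4 removals of trends with length (loess, span 0.3) added after seeing the data.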

Additional observations from a re-analysis of the deposited data

How the results depend on the processing

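The direction of the median difference on HFD was positive in deleted, floxed and averaged islets under every setting run, and its size was not stable. No setting scaled the libraries to their full summed FPKM. The set held a smaller share of that sum in every HFD library than in any 14-week chow library. The positive direction therefore holds only for the settings run. Values below are for deleted, floxed and averaged islets in that order. Quantile normalization gave medians of 0.10, 0.11 and 0.13, with 27, 31 and 40 genes higher and 4, 5 and 8 lower. Scaling to summed FPKM without the 20 most abundant genes gave 0.16, 0.20 and 0.18, with the median of all genes shifted by -0.10, -0.11 and -0.10. Removing the length trend gave 0.0634, 0.0367 and 0.05002 with 25, 30 and 37 genes called. Of these, 23, 20 and 29 were higher on HFD and 2, 10 and 8 lower. Adding GC content gave 0.0634, 0.0411 and 0.0449 with 26, 30 and 40 called. Of these, 24, 22 and 32 were higher and 2, 8 and 8 lower. Adding level in place of GC content gave 0.0503, 0.0456 and 0.0273 with 22, 32 and 37 called. Here 18, 24 and 28 were higher and 4, 8 and 9 lower. The longest transcript gave 0.136, 0.0760 and 0.126, with 33 called in floxed islets.

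Between genotypes on HFD, where 1 gene was called, the count was 2 without a filter, 5 by quantile normalization, 4 without the 20 most abundant genes, 2 with sample weights, 10 with only the groups compared, 13 with length removed, 15 with GC added, 9 with level added and 10 with the longest transcript. Across these settings 2.83% to 6.02% of all tested genes passed as higher and 3.85% to 7.12% as lower. Averaged over conditions, where 1 was called, it was 0 without a filter, 2 with length removed, 5 with GC added, and 3 with level added and with the longest transcript. There 0.675% to 1.91% of all tested genes passed as higher and 1.17% to 2.74% as lower. At 8 weeks length removal gave 1, where 0.304% of all tested genes passed as higher and 0.461% as lower. For the genotype difference in diet response, where 0 were called, 1 was called with only the groups compared, 2 with length removed, 3 with GC added (median 0.0382) and 2 with level added. In these settings 1.56% to 2.21% of all tested genes passed as higher and 2.18% to 2.46% as lower.

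For age in deleted islets, where 1 was called, sample weights gave 3, only the groups compared 0, length removed 2, level added 2 and the longest transcript 3. Of all tested genes, 0.572% to 5.24% then passed as higher and 0.123% to 3.20% as lower. In floxed islets, where 0 were called, the counts were 3 with sample weights, 2 with length removed, 3 with GC added, 1 with level added and 3 with the longest transcript. Of all tested genes, 3.52% to 5.08% then passed as higher and 1.06% to 2.80% as lower. Averaged, where 2 were called, the counts were 1 with only the groups compared, 4 with length removed, 5 with GC added, 5 with level added and 4 with the longest transcript. There 4.62% to 6.30% of all tested genes passed as higher and 1.66% to 3.52% as lower.

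Leaving out 1 library gave 27 to 54 called for diet in deleted islets, 0 to 2 for genotype on HFD and averaged over conditions, 1 to 3 for age averaged, and 0 to 1 for age in floxed islets and for the genotype difference in diet response.

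Some genes turned direction. Ndufb9 in deleted islets was -0.0441 by quantile normalization, -0.0227 with length and level removed and -0.0217 with the longest transcript. Ndufb9 in floxed islets was -0.00126 with GC added, -0.00863 with level added and -0.0671 with the longest transcript. Ndufb9 averaged was -0.00912 by quantile normalization, -0.0157 with level added and -0.0444 with the longest transcript. Sdhd averaged was -0.00225 with the longest transcript. Uqcrq was -0.0414 in deleted, -0.0775 in floxed and -0.0594 in averaged islets with length removed. Uqcrq was -0.0161, -0.0672 and -0.0417 with GC added, and -0.0946, -0.0800 and -0.0873 with level added. Atp5b and Sdhb, at 0.05 and 0.01 and not called in deleted islets as reported, turned to called lower in deleted islets under quantile normalization, at -0.27 and -0.15. The cause was not tested.

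The replicate numbers were not taken as a pairing in the main fit. Correlations between libraries were taken on the deviations of each gene from its group mean. On these deviations, same-numbered libraries of different groups correlated at -0.159 to 0.232 (45 pairs, median 0.0413). Libraries of other numbers correlated at -0.234 to 0.220 (90 pairs, median -0.0159). Of 18 libraries, 14 had their highest mean correlation with libraries of their own number, a hint of a pairing from the data alone. A batch shared by number was not excluded. With the replicate number as a block, 42, 54 and 61 genes were called for diet, and Ndufb9 in deleted islets was not called (limma adjusted p = 0.0511). Of all tested genes, 8.70%, 14.6% and 17.7% then passed as higher and 5.44%, 13.1% and 16.3% as lower.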
